A study of Mus musculus with 3647 samples.

Results

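The transcripts of 4 small calcium-binding proteins were followed across single mouse brain nuclei: Pvalb (parvalbumin), Calb1 (calbindin), Calb2 (calretinin) and Hpca (hippocalcin). They were chosen by name, and all 4 were found among the 23420 genes of the expression tables. The nuclei came from the thalamic reticular nucleus (TRN), a sheet of inhibitory neurons wrapped around the thalamus, and from other regions. TRN nuclei were sorted on a DNA dye together with the neuronal protein NeuN (about 750 nuclei with values, 8 plates) or on the dye alone (about 690 nuclei, 13 plate names), and 240 nuclei came from thalamus and globus pallidus beside the TRN (4 plates). Nuclei sorted on the dye and GFP, which the submitters describe as Pvalb-positive, came from the striatum (71 nuclei), the hippocampus (440) and 2 cortical areas, M2 (about 170) and somatosensory (about 150). A further 43 hippocampal nuclei carried no GFP sort label, and 95 Patch-seq libraries held the RNA of single cells collected after electrical recording. The labels give no strain, age, animal or transgene for any group. Each group therefore counts as 1 sample: no test between groups was made, each share carries a 95% interval by the exact Clopper-Pearson method, which covers counting error only, and ranges over plates describe spread of unknown source.

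Parvalbumin, calbindin and calretinin are cytosolic calcium buffers that bind calcium through EF-hand loops, and neuroanatomists use them to mark classes of neurons. Parvalbumin marks fast-spiking interneurons and TRN neurons, calbindin marks granule cells of the dentate gyrus and many matrix-type thalamic relay cells, and calretinin marks other interneurons and some midline thalamic cells. Hippocalcin is a neuronal calcium sensor of the same EF-hand superfamily: it moves to membranes when it binds calcium and is abundant in hippocampal pyramidal cells.

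The calcium-binding loop is the feature that the 4 proteins share, and the coding bases of 1 loop that lies within a single exon are shown for each gene. They are read 5′ to 3′ on the coding strand from GENCODE transcripts of build GRCm38, and capitals mark the codons of loop positions 1, 3, 5, 7, 9 and 12, which hold the calcium-coordinating residues.
Pvalb: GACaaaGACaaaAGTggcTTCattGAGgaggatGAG
Calb1: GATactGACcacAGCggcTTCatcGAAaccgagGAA
Calb2: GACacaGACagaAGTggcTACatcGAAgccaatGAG
Hpca: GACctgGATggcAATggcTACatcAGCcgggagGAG
The Pvalb loop lies at chr15:78202526-78202561 on the minus strand in exon 3 of the Pvalb transcript used, and the Calb1 loop at chr4:15895644-15895679 on the plus strand in exon 5 of that of Calb1. The Calb2 loop lies at chr8:110149362-110149397 on the minus strand in exon 5 of that of Calb2, and the Hpca loop at chr4:129118382-129118417 on the minus strand in exon 1 of that of Hpca. All 4 are coding sequence. The PROSITE EF-hand pattern matched 2 loops in parvalbumin, the shortest of the proteins at 110 residues, 4 in calbindin, 5 in calretinin and 3 in hippocalcin. It matched a protein of 0.993% of 21760 protein-coding genes. In a global alignment calbindin and calretinin had identical residues over 60.5% of the shorter protein, while each other pair shared 26.4 to 35.5%. The sources used here do not give how reads shared between related genes were handled.

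Expression is given as TPM, the share of a library's transcripts that come from a gene scaled to a fixed total, which corrects for transcript length, so levels can be set side by side between genes. TPM keep no read counts: the depth is unknown, and the number of genes with a value above 0 stands in for it. Its median was 4983 in NeuN-selected and 2426 in unselected TRN nuclei, 2469.5 in adjacent tissue, 2889 to 4218 in the GFP-sorted regions and 6654 in Patch-seq. Cell classes were rebuilt here by clustering, so each class name means "-like", and 5.37 to 14% of the nuclei of a group lay in clusters left unnamed. Gad1, the enzyme that makes GABA, was found in 98.8% of about 780 TRN GABAergic nuclei and in 19.9% of about 200 thalamic glutamatergic nuclei. The glutamate transporter Slc17a6 was found in 2.43% and 98.01% of them. Six3, a transcription factor of TRN neurons, was found in 83.1% and 2.99%, so these 2 class names follow their defining markers.

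Across whole tissue and sort groups, before any cell class was drawn, Pvalb was found in 68.8% of NeuN-selected TRN nuclei (65.4 to 72.1%) and in 35.4% of unselected ones (31.9 to 39.1%). Hpca followed the same order at 41.4% and 16.7%, Calb1 at 16.1% and 6.48%, and Calb2 at 8.90% and 2.31%. Nuclei beside the TRN had Pvalb in 24.2%, Hpca in 18.3%, Calb1 in 10% and Calb2 in 1 of 240 nuclei. The NeuN sort had the higher share of all 4 genes among TRN nuclei. It also held fewer glial nuclei, 4 of about 300 oligodendrocyte-like ones, the others being from the unselected sort, and the part of cell makeup in these shares was not tested. Hippocampal nuclei had Hpca in 76.8% (72.6 to 80.7%) and Calb1 in 34.3%, the highest Hpca share among the GFP-sorted regions. M2 cortex had Hpca in 41.7%, striatum in 36.6% and somatosensory cortex in 24.8%. The interval of the hippocampal share does not overlap those of the other 3 regions, whereas those of M2 cortex and striatum overlap. Calb2 was the rarest of the 4 in every group, from 0 of 71 striatal nuclei, which allows a share of up to 4.23%, to 14.7% of Patch-seq libraries.

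**Figure D1:**
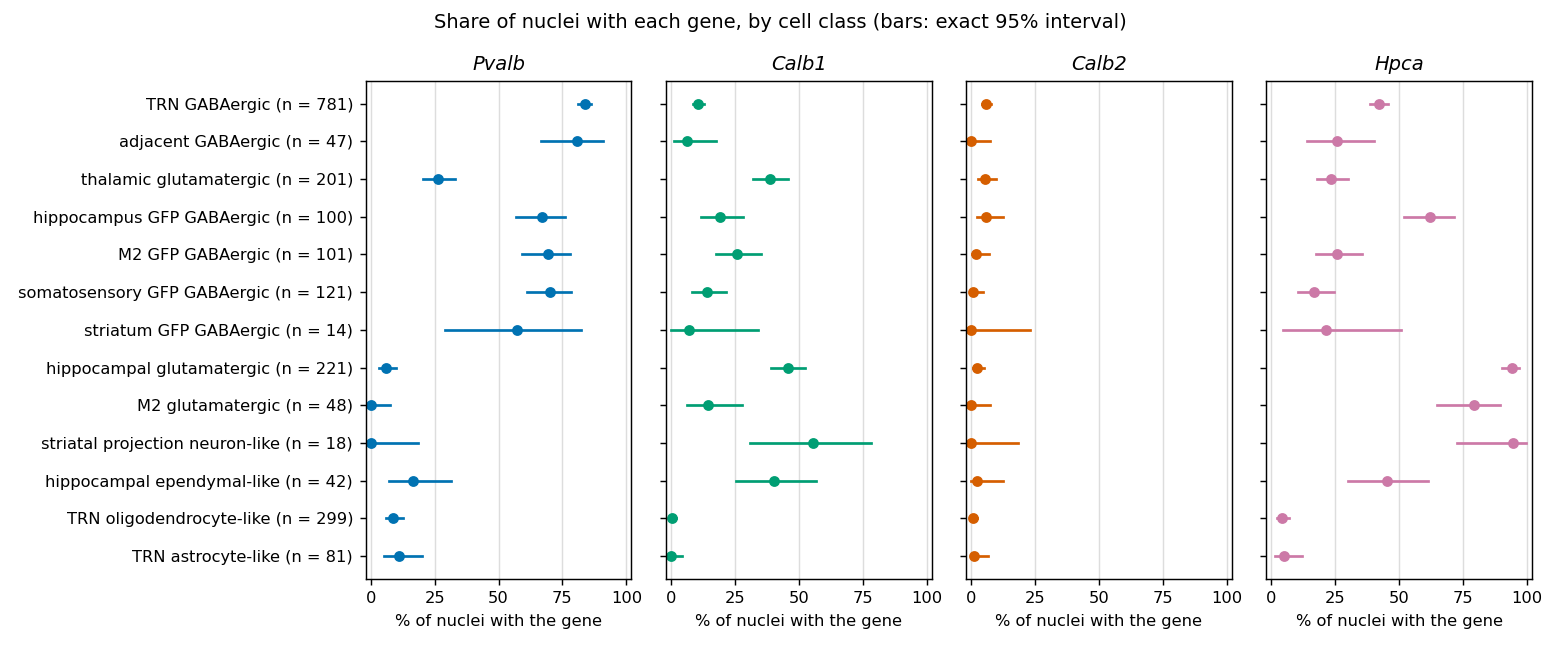
Percent of nuclei in which each of the 4 genes had a TPM above 0 (horizontal axis), for 13 cell classes (rows, with the number of nuclei); points are shares and bars exact 95% intervals for counting error. Pvalb was highest in TRN GABAergic nuclei (83.7%), with an interval that overlaps that of adjacent GABAergic nuclei (80.85%). Hpca was highest in hippocampal glutamatergic (94.1%) and striatal projection neuron-like nuclei (94.4%), while Calb2 stayed at or below 6% in the classes drawn.

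Pvalb was the member found most often in TRN GABAergic nuclei. The transcript was present in 83.7% of these nuclei (80.96 to 86.3%), with a mean of 732.6 TPM and a median of 709.5 TPM where it was found. Over 19 plates with at least 10 such nuclei the lowest share was 66.7%. Where found, its level ran from 8.80 to 4622 TPM, so the class holds nuclei without the transcript beside nuclei with large amounts. In the NeuN-selected sort the mean was 671.6 TPM and in the unselected sort 885.2 TPM, a log2 ratio of -0.40 that is smaller than its SD over plates of 0.57 and turned to 0.41 with classes from a marker gate. NeuN-selected plates fell into sets by name: the 4 plates named NP had means between 755.8 and 927.1 TPM, and the 4 plates named TRNp between 404.3 and 618.4 TPM. These ranges did not overlap, and the TRNp nuclei had more detected genes (median 5426 against 4462). The part of detected genes in this difference was not tested. GABAergic nuclei beside the TRN had Pvalb in 80.85% (66.7 to 90.85%) at a mean of 913.4 TPM. Their log2 ratio over the TRN nuclei was 0.32, smaller than its SD over plates of 0.50.

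In the GFP-sorted regions Pvalb was found in 57.1 to 70.2% of GABAergic nuclei, at means of 111.9 to 209.5 TPM. Because those nuclei were chosen on a reporter that the submitters tie to Pvalb, these values are given as a description only. The share was 8 of 14 nuclei in striatum, 67% in hippocampus, 69.3% in M2 cortex and 70.2% in somatosensory cortex, and all 4 intervals overlap. Levels among the nuclei that had Pvalb were lower than in the TRN, with a median of 154.8 TPM in hippocampus. Hippocampal plates spread widely, from 5 of 14 nuclei to 12 of 12.

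Thalamic glutamatergic nuclei, the relay cells that the TRN inhibits, had Pvalb in 26.4% (20.4 to 33%) at a mean of 50.2 TPM. The log2 ratio of TRN GABAergic over thalamic glutamatergic nuclei was 3.84, against an SD over plates of 1.61. In that comparison 8.74% of 13014 genes were at least 2-fold higher and 9.8% at least 2-fold lower in the TRN nuclei, counting genes found in at least 5% of either class. The thalamic share was not the same in all relay cells: over all nuclei of a cluster, adjacent tissue included, it was 17.5% in cluster 5, led by Cbln1 and Trpm6, and 48.6% in cluster 10, led by Tnnt1 and Pcp4, where the median of detected genes was also higher (5834 against 4683.5). Glia should lack the gene, and nearly all glial nuclei came from the unselected sort, so relay cells of that sort were set beside them. There Pvalb was found in 24.1% of 58 relay nuclei (13.9 to 37.2%), 8.14% of oligodendrocyte-like nuclei (5.28 to 11.9%) and 11.2% of astrocyte-like nuclei (5.28 to 20.3%). The relay interval lies above that of the oligodendrocyte-like nuclei and overlaps that of the astrocyte-like nuclei. These glia had fewer detected genes, with medians of 1990 and 2160 against 4676 in relay cells, and how much of the relay-cell share is background was not tested. Relay cells of the NeuN-selected sort had Pvalb in 27.3% (20.2 to 35.4%), where 4 oligodendrocyte-like nuclei and 1 astrocyte-like nucleus are too few to give a background.

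Calb1 was a minority transcript in the TRN and a common one in relay cells. The gene was detected in 83 TRN GABAergic nuclei, 10.6% (8.55 to 13%), and in 78 thalamic glutamatergic nuclei, 38.8% (32.03 to 45.9%). The means were 20.2 and 86.8 TPM, a log2 ratio of -2.05, which is smaller than its SD over plates of 2.50. The intervals of the shares do not overlap, whereas the levels vary between plates by more than they differ. In the unselected sort, which holds nearly all of the glia, Calb1 was found in 41.4% of relay nuclei (28.6 to 55.1%), 0.339% of oligodendrocyte-like nuclei (up to 1.87%) and 0 of 80 astrocyte-like nuclei, which allows up to 3.75%. In the NeuN-selected sort it was found in 37.8% of relay nuclei. Among relay cells Calb1 was found in 32.5% of cluster 5 and 45.9% of cluster 10. In TRN GABAergic nuclei the Calb1 share followed detected genes: in 3 equal sets ordered by that number it was 4.21%, 10.4% and 17.3%. Pvalb rose with that number too, at 78.2%, 82.7% and 90.4%. Calb2 stayed at 5.75%, 5.38% and 6.15% in the same sets, and Hpca was at 35.25%, 49.2% and 41.5%.

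Calb1 was found in the GFP-sorted interneurons of every region, at shares whose intervals overlap one another. The gene was found in 25.7% of M2 cortex GABAergic nuclei (17.6 to 35.4%), 19% of hippocampal ones, 14.05% of somatosensory ones and 1 of 14 striatal ones. The mean levels were 95.5 TPM in M2, 70.1 TPM in somatosensory cortex, 55.3 TPM in hippocampus and 3.40 TPM in striatum, against 20.2 TPM in the TRN. As the mean of regions this is 56.1 TPM, a log2 ratio of -1.43 for the TRN that is smaller than its SD over TRN plates of 2.01. The SDs of this comparison leave out the spread of the GFP-sorted plates. In this comparison 8.64% of 13006 genes were at least 2-fold higher and 12% at least 2-fold lower in the TRN. The M2 interval lies above that of the TRN, and those of the other 3 regions overlap it. Calb1 means of single plates ran from 28.2 to 159.5 TPM in M2, 0 to 80.6 TPM in hippocampus and 55.9 to 85.1 TPM in somatosensory cortex. Calb2 and Hpca were found in 2.202% and 31.4% of GFP-sorted nuclei as the mean of regions. Their log2 ratios were 0.56 and 0.59 for the TRN, against SDs over TRN plates of 1.59 and 0.56. Neither direction held throughout: Calb2 turned to -1.21 with clustering at resolution 0.5, and Hpca to -1.76 with classes from a gate on Gad1 or Gad2 against Slc17a6 or Slc17a7. Of the GABAergic nuclei, all but 3 of the somatosensory and 13 of 14 striatal ones lay in cluster 1 of the GFP-sorted table, 74 of 100 hippocampal ones in cluster 2, which was led by Sst and Crhbp, and M2 ones in both (61 and 40). Region and plate cannot be told apart.

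Calb2 was rare in TRN GABAergic nuclei, and most of the nuclei that had it lay in 1 cluster. Its transcript was present in 45 nuclei, 5.76% (4.23 to 7.63%), at a mean of 5.66 TPM. Cluster 8 held 14.2% of the TRN GABAergic nuclei but 28 of those 45, or 62.2%. In cluster 8 Calb2 was found in 25.2% of TRN nuclei at a mean of 34.1 TPM, against 1.32 to 3.70% in clusters 2, 3, 4 and 7. Cluster 8 was led by Hcrtr1, a receptor for orexin, and by Cbln4 and Baiap3. Over all nuclei of the cluster, Six3 was found in 31.1% and Pvalb in 23.5%, whereas Six3 was in 74.6 to 98.6% of the other 4 clusters. Most of its nuclei came from the NeuN-selected sort, 97 against 14 from the unselected sort and 8 from beside the TRN. Thalamic relay cells had Calb2 in 5.47%, the hippocampal interneurons in 6%, and the other GFP-sorted interneurons in 0 to 1.98%. GABAergic nuclei beside the TRN had Calb2 in 0 of 47, which allows up to 6.38%, so a share as in the TRN was not excluded by this number of nuclei.

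A high Calb2 level belonged to a cluster that was left without a name. Cluster 13 (46 nuclei) was led by genes that include Rgs9, which is on the striatal projection neuron list, and did not meet the rule for any class. The cluster had markers of both transmitters, with Gad1 in 86.96% of its nuclei and Slc17a6 in 41.3%. Its 23 NeuN-selected nuclei had Calb2 in 18 of 23, with a median of 713.7 TPM where it was found, and Calb1 in 0 of 23, which allows up to 13.04%. Its 19 nuclei from beside the TRN had the reverse: Calb1 in 14 of 19, with a median of 310.6 TPM where found, and Calb2 in 0 of 19, which allows up to 15.8%. Hpca was common to both, in 18 of 23 and 19 of 19 nuclei, at means of 357.8 and 1320 TPM. The 4 unselected TRN nuclei of the cluster had each of Calb1 and Calb2 in 2 of 4, so the genes did not divide the cluster by tissue alone, and sort, tissue and plate cannot be told apart. Calb2 was among the genes leading the cluster, so its level there is a description.

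**Figure D2:**
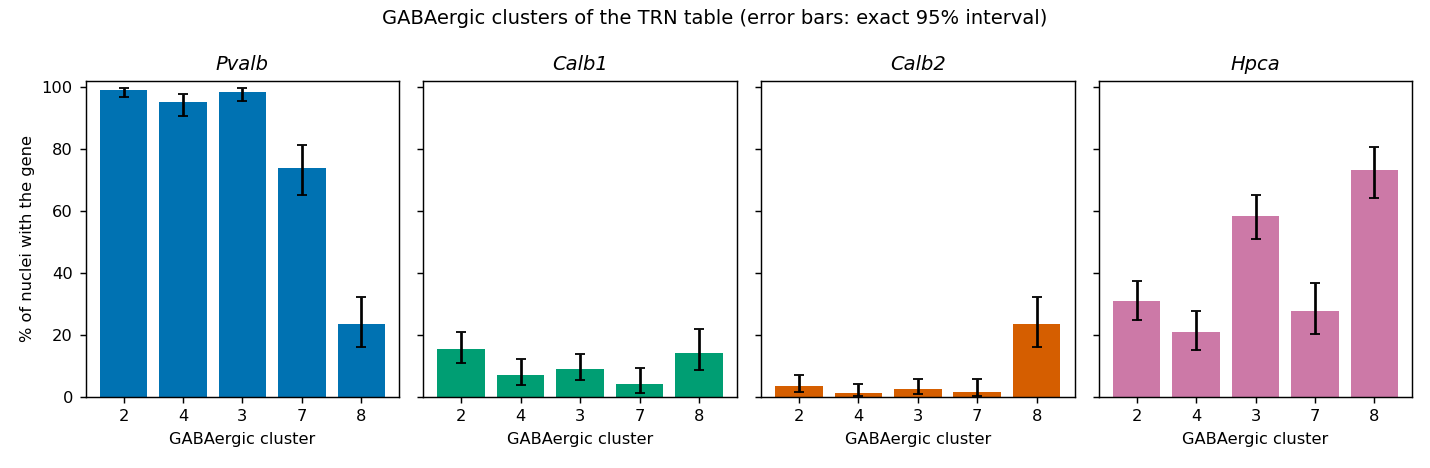
Percent of nuclei with each gene (vertical axis) in the 5 GABAergic clusters of the TRN table, including nuclei from adjacent tissue; bars are shares and error bars exact 95% intervals. Pvalb was lowest and Calb2 and Hpca highest in cluster 8, and Hpca was higher in cluster 3 (58.3%) than in clusters 2 and 4 (30.9% and 20.8%).

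Hpca was found in 42% of TRN GABAergic nuclei (38.5 to 45.6%), at a mean of 106.8 TPM, and in 23.4% of thalamic relay cells (17.7 to 29.8%) at 37.1 TPM. The log2 ratio was 1.5, above its SD over plates of 0.97. Within the TRN the share was 57.6% in cluster 3, led by Sst, Cplx3 and Ecel1, and 75.7% in cluster 8, against 31.5% and 22.4% in clusters 2 and 4, both led by Spp1. Cluster 7, which had Ecel1 among its leading genes too, had Hpca in 28.8%, close to clusters 2 and 4. Mean levels were 165.5 and 207.9 TPM in clusters 3 and 8, 103.5 TPM in cluster 7, and 39.7 and 56.8 TPM in clusters 2 and 4. Oligodendrocyte-like nuclei had Hpca in 4.01% and astrocyte-like nuclei in 4.94%. NeuN-selected and unselected TRN GABAergic nuclei had 108.5 and 102.3 TPM, a log2 ratio of 0.08 with an SD over plates of 0.80. For the 3 other genes the same ratio also stayed under its SD over plates, where 5.37% of 12652 genes were at least 2-fold higher and 2.17% at least 2-fold lower with NeuN selection. GABAergic nuclei beside the TRN had Hpca in 25.5% (13.9 to 40.4%), a log2 ratio of -0.86 against the TRN with an SD of 3.27 that turned to 1.3 with classes from a marker gate, in a comparison where 5.65% of 12760 genes were at least 2-fold higher and 12.3% at least 2-fold lower.

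Hpca and Calb1 were the members found most often in hippocampal glutamatergic nuclei. These nuclei were caught in the GFP sort although they are not interneurons: about 220 of them had Hpca in 94.1% (90.2 to 96.8%) and Calb1 in 45.7% (39 to 52.5%). Pvalb was found in 5.88% of them and in 2 of 19 hippocampal astrocyte-like nuclei, and whether it is background was not tested. The mean Hpca level was 1390 TPM against 164.4 TPM in hippocampal GABAergic nuclei, a log2 ratio of 3.07 with an SD over plates of 0.88. Calb1 reached 160.9 and 55.3 TPM, a ratio of 1.52 with an SD of 2.52, and Calb2 2.00 and 13.6 TPM. In this comparison 13.1% of 13784 genes were at least 2-fold higher and 12.3% at least 2-fold lower in the glutamatergic nuclei. Plates named X061616 had mean Hpca levels of 1780 to 2461 TPM in glutamatergic nuclei and plates named X041317 of 715.6 to 1729 TPM, which do not overlap. Within each set Hpca was higher in glutamatergic than in GABAergic nuclei, with log2 ratios of 3.42 and 2.92. A cluster of mixed markers also had Hpca: cluster 8 of the GFP-sorted table (51 nuclei, 40 of them hippocampal), led by the myelin genes Mal, Opalin and Mag but left unnamed, had it in 76.5% (62.5 to 87.2%) at a mean of 1523 TPM, with a median of 2264 detected genes against 4574 in the glutamatergic nuclei. Of 7 neuronal markers 5 were each found in at least 50% of its nuclei, as were 2 of 8 oligodendrocyte markers. Slc17a7, the glutamate transporter of hippocampal and cortical neurons, was found in 49.02% and Gad1 in 29.4%. The hippocampal glutamatergic nuclei had Slc17a7 in 86.4% and Gad1 in 28.05%, so the Gad1 share did not set this cluster apart from them. Whether the nuclei of the cluster held RNA of more than 1 cell was not tested. Calb1 was found in 19.6% of that cluster (9.82 to 33.1%), below the interval of the glutamatergic nuclei.

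The hippocampal glutamatergic clusters differed in the balance of Hpca and Calb1. Cluster 3, led by Fibcd1 and Wfs1, genes of CA1 pyramidal cells, had the highest Hpca level, 2018 TPM in 79 nuclei, and Calb1 in 34.2% (23.9 to 45.7%) at 82.5 TPM. Cluster 6, led by C1ql2, Dsp and Glis3 and with Prox1, a transcription factor of dentate granule cells, in 69.1%, had the lowest Hpca level of the 3 main clusters, 761.8 TPM, and the highest Calb1 share, 66.2% (53.7 to 77.2%), at 328.6 TPM. Cluster 5 lay between them with 1492 TPM of Hpca and Calb1 in 45% at 105.1 TPM. The Calb1 intervals of clusters 3 and 6 do not overlap. In the hippocampal nuclei without a sort label, Hpca was found in 28 of 28 and Calb1 in 13 of 28 glutamatergic nuclei, at means of 1964 and 130 TPM.

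**Figure D3:**
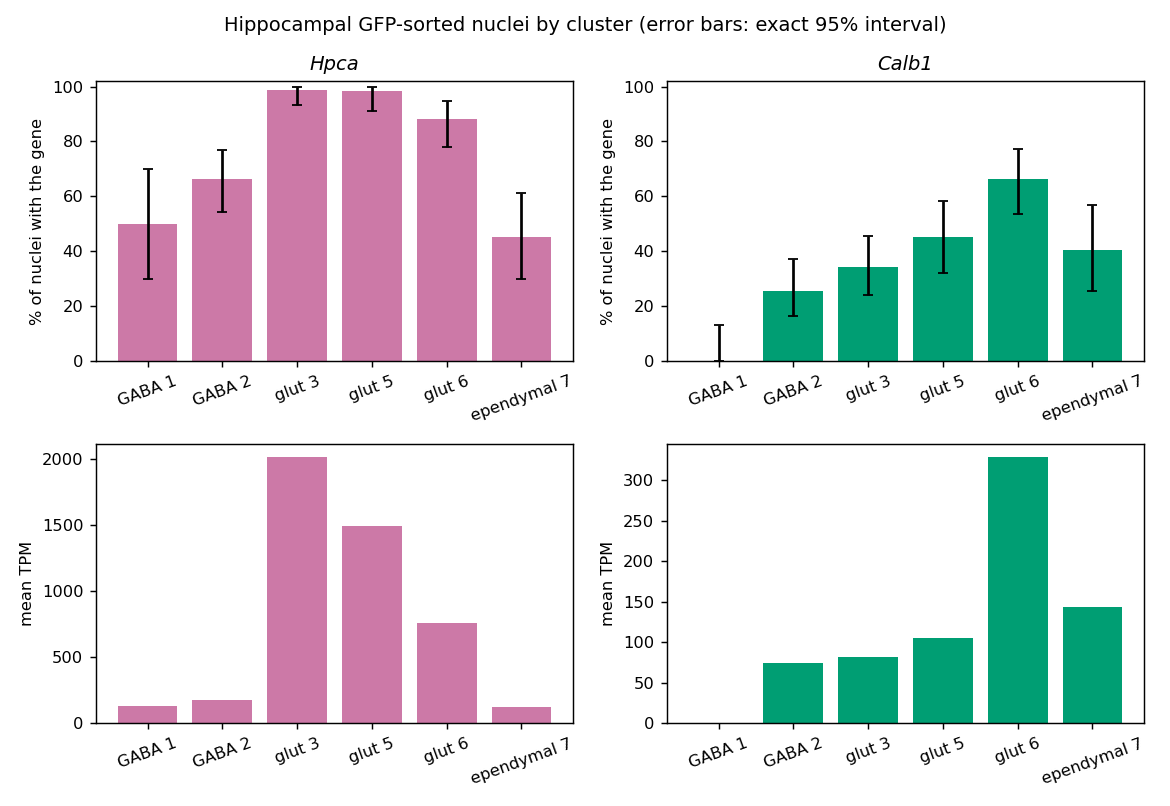
Percent of nuclei with Hpca (left) and Calb1 (right) in the upper row, with exact 95% intervals, and mean TPM in the lower row, for GFP-sorted hippocampal nuclei by cluster. Hpca was highest in glutamatergic cluster 3 (2018 TPM) and Calb1 in glutamatergic cluster 6 (328.6 TPM).

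Nuclei of ependymal-like cells, the ciliated lining of the ventricles, had both genes as well. Among 42 hippocampal ones Calb1 was found in 40.5% (25.6 to 56.7%) at 143.3 TPM, Hpca in 45.2% (29.8 to 61.3%) at 124.1 TPM and Pvalb in 16.7%. Among 12 striatal ones Calb1 was found in 7 of 12, Hpca in 5 of 12 and Pvalb in 0 of 12. Hippocampal astrocyte-like nuclei had Hpca in 6 of 19 and Calb1 in 1 of 19. The Hpca share of ependymal-like nuclei thus overlaps the interval of hippocampal astrocyte-like nuclei (12.6 to 56.6%), a non-neuronal class of the same plates, and whether it is background was not tested. The Calb1 interval of the ependymal-like nuclei overlaps that of the astrocyte-like nuclei only from 25.6 to 26.03%. Slc17a7 was found in 16.7% and Gad1 in 9.52% of the ependymal-like nuclei. Outside the hippocampus, Hpca was found in 79.2% of M2 cortex glutamatergic nuclei (362.6 TPM) and in 17 of 18 striatal projection neuron-like nuclei (2053 TPM), which also had Calb1 in 10 of 18.

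Spp1 (osteopontin) and Ecel1 (a membrane endopeptidase) are transcripts that seldom occurred together in TRN nuclei, and nuclei with only 1 of them were compared next. Of the TRN GABAergic nuclei, about 270 had Spp1 only, about 270 had Ecel1 only, 37 had both and 210 neither. Hpca separated the sets most: it was found in 20.9% of Spp1-only nuclei (16.2 to 26.3%) and 55.6% of Ecel1-only nuclei (49.5 to 61.7%), at means of 36.2 and 180 TPM. Pvalb went the other way, in 97.8% (95.2 to 99.2%) and 77.8% (72.3 to 82.7%), at means of 903.6 and 581.9 TPM. For both genes the intervals of the 2 sets do not overlap. Spp1-only nuclei had more detected genes (median 5264 against 4577) and more often Six3 (95.5% against 74.8%), and the part of these in the differences was not tested.

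The 9 plates with at least 10 nuclei of each set gave the same order for both genes. The Hpca level on these plates was 21.3 to 68.9 TPM in Spp1-only nuclei (median 32.1) and 60.7 to 267.4 TPM in Ecel1-only nuclei (median 211.7), and it was lower in the Spp1-only nuclei on 9 of 9 plates. The plate ranges overlap only between the lowest Ecel1-only plate and the highest Spp1-only plates. Pvalb ran from 571.9 to 1544 TPM in Spp1-only nuclei (median 855.6) and from 282.8 to 786.5 TPM in Ecel1-only nuclei (median 605.3), and was higher in the Spp1-only nuclei on 9 of 9 plates. The pooled log2 ratio was -2.29 for Hpca and 0.63 for Pvalb. Since each plate holds both sets, the ratios were also taken within plates: they ran from -3.42 to -1.47 for Hpca (SD 0.71, n = 9 plates) and from 0.24 to 1.14 for Pvalb (SD 0.32, n = 9 plates). In this comparison 5.79% of 12809 genes were at least 2-fold higher in Spp1-only nuclei and 6.82% at least 2-fold lower. Calb1 was found in 14.6% and 9.77%, with overlapping intervals, and its share was higher in Spp1-only nuclei on 5 of 9 plates and its level on 6 of 9. Calb2 was found in 2.61% and 7.14% and was lower in Spp1-only nuclei on 8 of 9 plates, in share and in level. Its pooled log2 ratio was -1.10, with an SD of 2.33 over the ratios within plates, and on the NP plates alone it was 1.73, where Spp1-only nuclei of plate NP3 had 33.7 TPM.

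**Figure D4:**
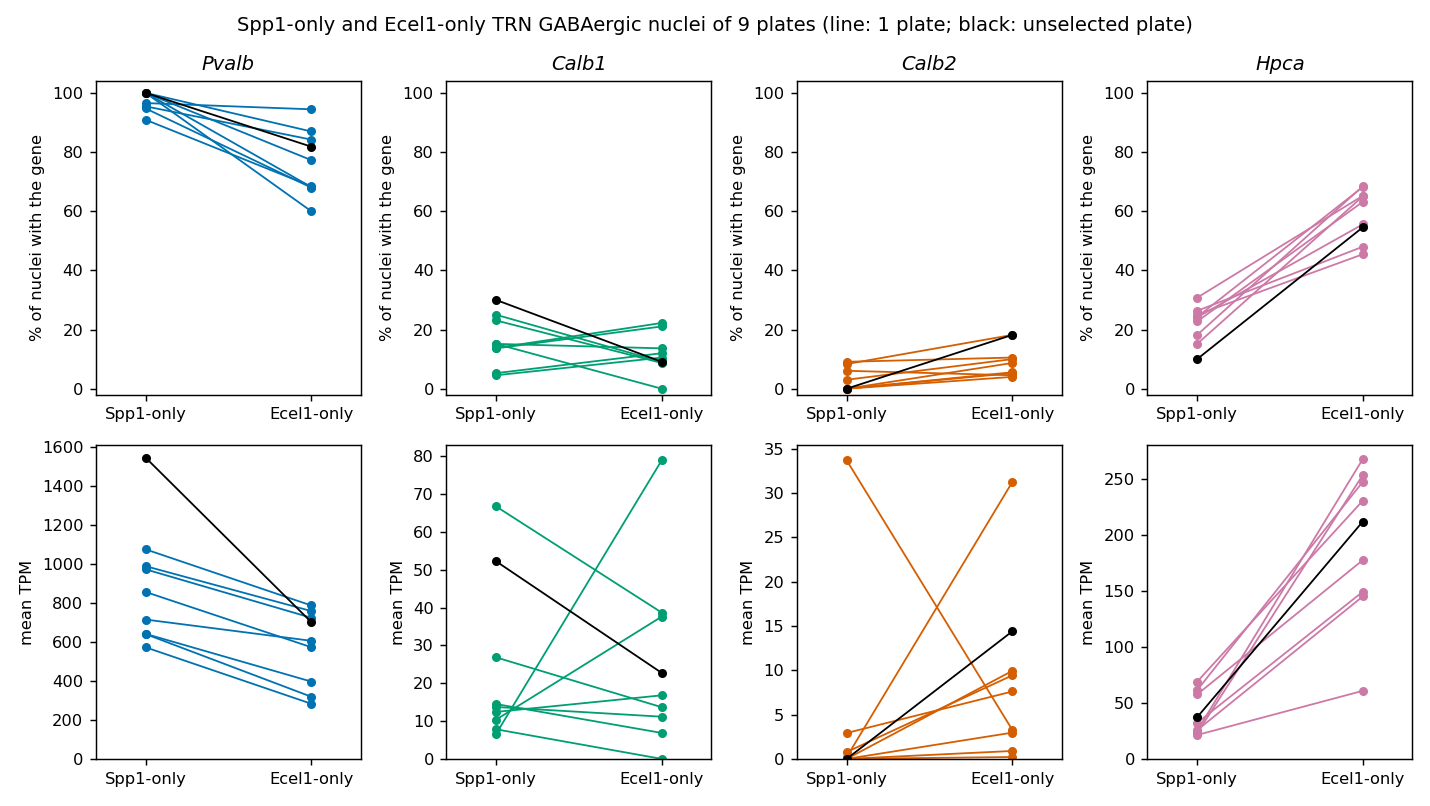
Percent of nuclei with each gene (upper row) and mean TPM (lower row) in Spp1-only and Ecel1-only TRN GABAergic nuclei; each line joins the 2 sets of 1 plate, and the black line is the unselected plate. Hpca lines go up and Pvalb lines go down on 9 of 9 plates, while Calb1 lines cross.

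Nuclei with both transcripts had Pvalb in 36 of 37, within the interval of the Spp1-only nuclei, and Hpca in 54.1% (36.9 to 70.5%), an interval that holds the Ecel1-only share. All 37 came from the NeuN-selected sort, whereas the other 2 sets pool both sorts. In the NeuN-selected sort alone, Spp1-only nuclei had Pvalb in 97.6% and Hpca in 23.1%, and Ecel1-only nuclei had them in 75.6% and 59.5%. Without cluster 8, which left about 260 Spp1-only and about 210 Ecel1-only nuclei, Pvalb was in 90.2% of Ecel1-only nuclei and Hpca in 50.9%, against 98.1% and 20.2% of Spp1-only nuclei. Calb2 was then found in 2.29% of Spp1-only and 3.27% of Ecel1-only nuclei. The Pvalb means of Spp1-only and Ecel1-only nuclei lay closer together, at 919.8 and 712.7 TPM, against 903.6 and 581.9 TPM with cluster 8. The Hpca means were 33.1 and 166.8 TPM without it. The order on each plate is not given without cluster 8. The Pvalb and Hpca intervals stayed apart without cluster 8, while those of Calb2 (0.845 to 4.92% and 1.32 to 6.62%) overlapped.

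Other genes of calcium handling were counted from 2 lists, of 24 EF-hand proteins and of 12 pumps and exchangers. Of 20 measured EF-hand sensors and buffers, 1 was at least 2-fold higher in Spp1-only nuclei, the potassium channel-interacting protein Kcnip1 (538.9 against 262.3 TPM), and 6 at least 2-fold lower, led by Hpcal4, a relative of hippocalcin (2.24 against 45.2 TPM), and Necab2 (1.92 against 27.5 TPM). Of 10 calcium pumps and exchangers 0 were higher and 3 lower, led by the plasma membrane pump Atp2b4 (0.69 against 11.9 TPM). Hpcal4 was found in 2.24% of Spp1-only and 25.9% of Ecel1-only nuclei, Necab2 in 2.24% and 12.03%, and Atp2b4 in 1.49% and 16.2%. Each passed the 5% filter through the Ecel1-only nuclei alone, so its place among the lower genes is a description. Genes of the comparisons below could pass through 1 group in the same way. Atp2b4, and Caln1 of the 6 lower sensors and buffers, were among the leading genes of cluster 8. Leaving that cluster out took Ecel1-only nuclei from about 270 to about 210 and Spp1-only nuclei from about 270 to about 260. No counts without cluster 8 are given here, and its part in these counts was not tested. Over all genes 5.79% were higher and 6.82% lower, so the 1 of 20 higher lies near that share. The list medians of the log2 ratio were -0.30 and 0.25, beside 0.04 over all genes. Between TRN GABAergic and relay nuclei 7 of 20 sensors and buffers were higher and 5 lower, with Kcnip1 at 387.3 against 3.31 TPM and Kcnip4 at 22.4 against 268.1 TPM, and 1 of 11 pumps and exchangers was higher and 4 lower, among them the exchanger Slc24a3 (a log2 ratio of -2.62), beside 8.74% of all genes higher and 9.8% lower. Between hippocampal glutamatergic and GABAergic nuclei 8 of 21 sensors and buffers were higher and 3 lower, and 5 of 11 pumps and exchangers were higher and 0 lower; Atp2b1, a plasma membrane pump, was at 780.3 against 133.6 TPM. Over all genes 13.1% were higher and 12.3% lower there, so the 3 of 21 lower lie near that share. Between the TRN and the GFP-sorted interneurons 4 of 20 sensors and buffers were higher, led by Hpcal1 (167.9 against 17.8 TPM), and 4 lower, led by Kcnip2 (38.4 against 273.1 TPM), and 2 of 10 pumps and exchangers were higher and 0 lower, beside 8.64% and 12% of all genes. With 1 sample a group these counts are descriptions of the libraries.

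Within the TRN, Calb2 and Pvalb were found together less often than the product of their shares. Of the TRN GABAergic nuclei, 45.1% had Pvalb alone of the 4 genes and 27.4% Pvalb with Hpca, while 49 nuclei had Hpca alone, 42 Pvalb with Calb1 and 40 none. Pvalb and Calb2 were found together in 19 nuclei, 2.43% (1.47 to 3.77%), where the product of their shares is 4.83%, a ratio of 0.50 with a range of 0.305 to 0.782 from the same interval. Of the nuclei with Calb2, 42.2% had Pvalb, against 86.3% of those without it. Calb2 and Hpca went together more often than the product, 3.71% against 2.42%, a ratio of 1.53 (1.03 to 2.19). Within each sort the interval of this ratio includes 1, at 0.929 to 2.16 in NeuN-selected and 0.66 to 3.84 in unselected nuclei. Cluster 8 held 28 of the 45 nuclei with Calb2 and had Hpca in 75.7% of its TRN nuclei. Its part in this ratio was not tested, and no ratio without it is given for this pair. Pvalb with Calb1 (1.01), Calb1 with Hpca (1.03) and Pvalb with Hpca (0.92) had intervals that include 1. These intervals cover the joint share only and take the product as fixed, so they cannot show that a pair was independent. Hpca was found in 38.7% of nuclei with Pvalb and in 59.1% of those without Pvalb. Calb1 was found in 10.7% and 10.2% of the same 2 sets. Without cluster 8 the ratio of Pvalb and Calb2 was 0.88 and that of Pvalb and Hpca 1.03. By sort, the Pvalb and Hpca ratio was 0.88 (0.778 to 0.996) in NeuN-selected and 1.03 (0.839 to 1.235) in unselected nuclei. In the NeuN-selected sort Hpca was found in 38.8% of nuclei with Pvalb and 68.04% of those without. In the unselected sort these shares went the other way, at 38.3% and 30%. In relay cells Pvalb and Hpca went together in 20 nuclei, a ratio of 1.61 whose interval starts at 1.00.

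Nuclei with more of 1 member also had more of certain other genes. Over the plates, the mean within-plate Spearman rho with Pvalb was highest for Cplx1, a regulator of synaptic vesicle release (0.37), and Mdh1, an enzyme of the malate shuttle (0.36), followed by Ramp3, Ldhb and Gad1. For Hpca it was highest for Vamp2, a synaptic vesicle protein (0.32), and Ywhaz (0.31), then Tubb2a, Stmn1 and Atp1b2. The values for Calb2 were led by the synaptotagmin Syt5 (0.33 over 13 plates) and those for Calb1 by Vwa9 (0.20 over 15 plates). Each is a description over 8624 genes and nuclei that share a library protocol, and the Calb1 and Calb2 values rest on the 83 and 45 nuclei that had the gene. Spp1 stood at 0.31 with Pvalb and -0.33 with Hpca, and Ecel1 at -0.21 and 0.23. Over the means of 14 cell classes, Pearson r with Hpca was highest for Fam19a1 (0.96), Acp1 (0.94) and Gabra5, a GABA receptor subunit (0.92), and r with Pvalb for Abat, an enzyme of GABA breakdown (0.91). The same r between members was -0.60 for Pvalb and Hpca and 0.42 for Calb1 and Hpca.

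Patch-seq libraries held RNA drawn from whole cells, so their shares do not measure the same RNA as nuclei. Pvalb was found in 84 of 95 libraries, 88.4% (80.2 to 94.1%), Hpca in 63.2% (52.6 to 72.8%), Calb1 in 32.6% (23.4 to 43.02%) and Calb2 in 14.7% (8.30 to 23.5%). Six3 was found in 85.3%, Gad1 in 92.6% and Slc17a7, a glutamatergic marker, in 27.4%. In NeuN-selected TRN GABAergic nuclei the shares in the same order were 82.6%, 43.9%, 11.6% and 6.45%. The mean levels in Patch-seq against these nuclei were 736.4 against 671.6 TPM for Pvalb, 75.5 against 108.5 TPM for Hpca, 36.5 against 22.8 TPM for Calb1 and 5.002 against 5.97 TPM for Calb2. Each log2 ratio was smaller than its SD. The Patch-seq part of that SD is not over plates: it rests on 2 sets of libraries by column name, 1 of which pools all other names. In this comparison 7.49% of 15133 genes were at least 2-fold higher and 26.5% at least 2-fold lower in Patch-seq. Patch-seq libraries had more detected genes, a median of 6654 against 4980 in the NeuN-selected GABAergic nuclei, and the part of that in the shares was not tested. By column name, the 34 libraries named patchseq_170204 had Pvalb in 33 of 34 at a mean log2(TPM + 1) of 9.31, and the 54 with other names in 85.2% at 6.999.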

How the data were processed

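Single nuclei were sorted on a DNA dye, alone or with NeuN or GFP, and sequenced by a modified Smart-seq2, per the labels' protocols; Patch-seq libraries were made from recorded cells. RSEM, Bowtie, TopHat2 2.0.10, Seurat 2.2.0 and build mm10 are named, without roles, in the submitters' processing notes. The authors deposited TPM for GFP-sorted nuclei and Patch-seq libraries. For the TRN the authors deposited natural log values: 1 was added to TPM that had been rescaled by a constant particular to each nucleus, judging by the values (236907 of 236907 values under 2 TPM came back within 0.1 steps of a multiple of 0.01), and TPM were recovered from it. Columns were matched to samples by the names in the labels, 0 columns were left over, 0 repeated another, and 994 of 3647 labelled samples were not analysed here.

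Each table was clustered separately on genes found in at least 10 nuclei, with log2(TPM + 1) of the 2000 most variable genes limited to 5 SD, 30 principal components, 15 neighbours and Leiden clustering at resolution 1, best of 20 starts. The 4 members were left out of the genes clustered; differences between clusters are given as descriptions. Clusters were named from marker lists, a marker counting when found in at least 50% of nuclei, with thresholds set after marker shares were seen. No doublet caller was run. A gene was called found at a TPM above 0. The log2 ratio is that of mean TPM plus a pseudocount of 1, which understates changes of low genes. Its SD combines the spread of both groups over plates with at least 10 nuclei. For TRN against GFP-sorted nuclei the SD holds TRN plates only, and Patch-seq libraries were divided by column name in place of plates. Genes past 2-fold were counted among those found in at least 5% of either group. The limit given for 0 nuclei is 3 nuclei of the total. Since no animal is named in the labels, no test was made between groups, each of which is 1 sample. GFP-sorted means are means of the 4 regions.

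The members and lists were chosen with earlier results of these data known. Named genes were the members, the 2 most changed of each calcium list in each direction, and the 5 genes most like each member, by mean within-plate Spearman rho among genes found in at least 20% of TRN GABAergic nuclei, or by Pearson r over classes of at least 20 nuclei among genes reaching 10 TPM. The calculations were tested on simulated data. Numbers of nuclei given as about are rounded to the nearest 10. The tools were scikit-learn 1.9.0, igraph 0.11.9, biopython 1.88, scipy 1.17.1, matplotlib 3.10.9, pandas 2.3.3 and numpy 2.4.6 under Python 3.11.15.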

Additional observations from a re-analysis of the deposited data

Results flagged for a closer look

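The share of NeuN-selected TRN GABAergic nuclei with Calb2 was 12.9% on plate TRNpC, apart from the 4.05 to 7.69% on the other 7 plates. The plate lay farther from its nearest neighbour than Dixon's criterion allows for 8 values. In all, 12 sets of plates were checked, so a single such plate can arise by chance.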

How the results depend on the processing

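At a cut of 10 TPM, the share with Calb1 was 13% and with Hpca 37.6% in NeuN-selected nuclei, with Hpca 13.4% in unselected ones, with Calb2 0 in adjacent tissue and with Hpca 37.6% in TRN GABAergic nuclei; Calb1 with Calb2 had a ratio of 0. At resolution 0.5, where clusters 8 and 13 merged and were left unnamed, the TRN GABAergic shares were 93.7% for Pvalb, 2.69% for Calb2 and 36.2% for Hpca, the co-detection ratio was 0.889 for Pvalb with Calb2 and 1.03 for Pvalb with Hpca, and the Calb2 log2 ratio of TRN over GFP-sorted nuclei was -1.21. With classes from a gate on Gad1 or Gad2 against Slc17a6 or Slc17a7, TRN GABAergic nuclei had Pvalb in 68.5% and Hpca in 35% with a co-detection ratio of 1.08, relay cells Calb2 in 10.7%, and hippocampal glutamatergic nuclei Pvalb in 1.56% and Calb1 in 35.2%. The same gate gave log2 ratios of -1.76 for Hpca in TRN over GFP-sorted nuclei, 0.41 for Pvalb in NeuN-selected over unselected nuclei and -0.75 for Pvalb in adjacent over TRN nuclei. On unselected plates alone the co-detection ratios were 0.257 for Pvalb with Calb2, 1.03 for Pvalb with Hpca and 0 for Calb1 with Calb2. Without cluster 8, chosen after seeing the data, they were 0.879 and 1.03 for the first 2 pairs.

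As a difference of mean log2 values, Pvalb was 2.28 for Spp1-only against Ecel1-only nuclei, -0.30 for adjacent against TRN nuclei and 5.92 for TRN against relay nuclei, and Hpca was 4.69 for hippocampal glutamatergic against GABAergic nuclei and 0.40 for Patch-seq. With the 7 libraries named patchseq_170106 alone, Patch-seq ratios were 1.21 for Calb2 and 0.22 for Hpca. Calb2 reversed, to 1.73, between Spp1-only and Ecel1-only nuclei on NP plates alone, also chosen after seeing the data. As percents of all 23420 genes, those past 2-fold went, without a filter on low values, from 3.17 to 5% higher and 3.73 to 7.06% lower in Spp1-only nuclei, 2.9 to 6.02% higher and 1.17 to 3.6% lower with NeuN selection, 3.08 to 5.05% higher and 6.7 to 12.2% lower in adjacent nuclei, 6.66 to 11.9% lower in TRN than GFP-sorted nuclei, 4.86 to 7.83% higher in TRN than relay nuclei and 7.72 to 12.9% higher in hippocampal glutamatergic nuclei. The cause of these moves was not tested. Leaving out each plate in turn, the Spp1-only log2 ratio ran from 0.6 to 0.67 for Pvalb, -0.23 to 0.48 for Calb1, -2.65 to -0.62 for Calb2 and -2.38 to -2.17 for Hpca, and the adjacent ratio from 0.1 to 0.4 for Pvalb, -0.94 to -0.54 for Calb1 and -1.28 to -0.4 for Hpca. No ratio was given where a group was listed at 0. For adjacent Calb1 this left 3 omissions, against 4 for Pvalb and Hpca, and the ratio of -0.97 over all plates lies outside their range. Without the remaining plate, Calb1 was at 0 in adjacent GABAergic nuclei. No paired analysis was possible because no result comes from a test and replicate numbers follow accession order; ratios within plates were taken for Spp1-only and Ecel1-only nuclei. The split of relay cells and glia by sort was also chosen after seeing the data. Depth is unknown, so shares near those of glia cannot be read as expression.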
